A study of Mus musculus with 8 samples.

Results

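The mitochondrial respiratory chain genes were followed across 8 mouse liver arrays. Members were all probe sets whose single gene symbol began with Ndufa, Ndufb, Ndufc, Ndufs, Ndufv, Uqcr, Atp5 or Cox followed by a digit from 4 to 8, or was Sdha, Sdhb, Sdhc or Sdhd. These were 156 of 22626 probe sets and stood for 84 genes. The choice used names only and no measured value. Complexes too were assigned by gene name alone, so Ndufa4 was counted in complex I. Complex I had 68 probe sets for 34 genes, complex II 7 for 4, complex III 15 for 8, complex IV 29 for 15 and complex V 28 for 17. The other 9 probe sets carried the names of 6 genes that are not counted as subunits here, Ndufaf1, Ndufaf3, Ndufaf4, Ndufaf5, Ndufaf7 and Cox7a2l, and they are given apart as assembly factors. After a filter on dim probe sets, 146 member probe sets of 81 genes were tested among 15838. Ndufb1, Cox4i2 and Cox6b2 had no tested probe set. A further 8 probe sets, among them those of Ndufb4, Ndufa11 and Ndufs6, carried several symbols and were left out.

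Every mouse was an LDL receptor null animal on a C57B6 background, was 8 months old, and had been fed a Western diet for 12 weeks before the experiment. At 10 weeks of age they received an adeno-associated virus (AAV 2.8) carrying GFP, or else human LXRα, a nuclear receptor for oxysterols, behind the human thyroxine binding globulin promoter, which restricts expression to liver. Each of these was combined with vehicle or with T0901317, a synthetic LXR agonist, injected intraperitoneally for 3 days at 5 mg/kg. That gave 4 groups with 2 arrays each, replicate 1 and 2, each from a mouse. Values are intensities on a linear scale, differences are on the log2 scale, and p-values measure the spread between these few arrays. Controls thus shared the receptor deletion, the diet and the virus with the treated animals. Because whole liver was assayed, fewer cells of a type and less RNA per cell cannot be told apart.

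Complexes I to IV pass electrons from NADH and succinate to oxygen, and complexes I, III and IV pump protons out of the mitochondrial matrix. Complex V, the ATP synthase, lets the protons return and makes ATP. Their subunits are encoded mostly in the nucleus and partly in mitochondrial DNA, and the nuclear genes measured here include factors that only help to build the complexes. Hepatocytes are rich in mitochondria, which also take the electrons released by fatty acid oxidation. Several complex IV subunits exist as a widely expressed form and a heart, muscle, lung or testis form.

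Promoter sequences of RefSeq (GRCm38.p6) were at hand for 70 of the 84 genes, as windows from 250 bases before to 50 bases after the start. Of the 75 member windows, 8.00% held the long palindromic binding motif of nuclear respiratory factor 1, against 0.97% of 32851 windows of all genes. Its shorter core GCGCATGC, which lies within it, was held by 14.67% against 2.71%. The ETS family motif CCGGAAG was held by 24.00% against 8.86%, and the estrogen-related receptor motif TCAAGGTCA by 2.67% against 0.42%. CCAAT was held by 38.67% against 37.41%, and TATAAA by 10.67% against 13.62%. Both strands were searched. The 6 genes with the long form were Cox6a1, Uqcrc1, Atp5g2, Atp5k, Ndufaf4 and Ndufaf5, and none of the 33 complex I windows held it. A match is a description of letters, not a bound site. The 250 bases before the start are printed for 4 genes on which the results below turn: Cox6a1 (chr5:115348959-115349208, minus strand) and Cox7a1 (chr7:30183921-30184170, plus strand), a widely expressed and a muscle form, then Cox6b1 (chr7:30626115-30626364, minus strand) and Ndufaf4 (chr4:24897833-24898082, plus strand), which stood among the largest T0901317 differences. Capitals mark the motifs named above on either strand.
Cox6a1: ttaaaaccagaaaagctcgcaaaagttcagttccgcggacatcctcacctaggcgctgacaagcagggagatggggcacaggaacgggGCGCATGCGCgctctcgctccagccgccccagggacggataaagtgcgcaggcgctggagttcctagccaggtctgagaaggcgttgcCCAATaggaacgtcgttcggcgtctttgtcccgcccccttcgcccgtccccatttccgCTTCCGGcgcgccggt
Cox7a1: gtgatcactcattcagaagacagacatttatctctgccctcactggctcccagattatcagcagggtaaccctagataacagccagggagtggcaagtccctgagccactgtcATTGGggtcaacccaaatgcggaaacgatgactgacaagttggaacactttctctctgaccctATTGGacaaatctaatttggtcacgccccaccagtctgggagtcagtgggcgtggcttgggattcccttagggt
Cox6b1: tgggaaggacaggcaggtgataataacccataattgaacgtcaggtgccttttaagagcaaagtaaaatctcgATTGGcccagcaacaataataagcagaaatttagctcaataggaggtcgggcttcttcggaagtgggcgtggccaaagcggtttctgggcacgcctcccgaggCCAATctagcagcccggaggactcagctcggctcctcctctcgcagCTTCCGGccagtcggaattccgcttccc
Ndufaf4: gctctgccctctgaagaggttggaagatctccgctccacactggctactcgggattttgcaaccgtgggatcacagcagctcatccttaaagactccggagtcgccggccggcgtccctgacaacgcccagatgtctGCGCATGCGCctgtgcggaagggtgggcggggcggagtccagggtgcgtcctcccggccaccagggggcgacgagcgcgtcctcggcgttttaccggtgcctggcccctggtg
Cox6a1 and Ndufaf4 showed the long motif, Cox6a1 and Cox6b1 the reverse complement of the ETS motif, Cox6b1 also CCAAT on both strands, and Cox7a1 only the reverse of CCAAT.

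The arrays were alike in median intensity, from 21.0 to 23.2. Alb, the albumin gene, gave 19677 to 31022, as a liver sample should. The 5 tested of 10 skeletal and cardiac muscle markers summed to 70.3 to 103 on 7 arrays and to 240 on GFP T0901317 replicate 2, where Acta1 alone gave 183 against 22.1 to 30.2 elsewhere. Ratios of 3' to 5' signal differed with treatment for several transcripts, though not for all. Signal at the 3' end of β-actin over that at its 5' end, a ratio that loss of 5' sequence raises, spanned 2.08 to 3.08 with vehicle. With T0901317 it spanned 7.56 to 36.3 on 3 arrays, the highest being LXRα replicate 2, while LXRα replicate 1 had 2.75. By the same ratio of pyruvate carboxylase, LXRα T0901317 replicate 1 was raised too, at 26.4 against 4.75 to 11.2 with vehicle and 51.9 to 60.5 on the other agonist arrays. Differences from a fit that includes the β-actin ratio are given below (as the covariate) for the members with an unadjusted p under 0.05 and some others, and the part of RNA quality in them was not tested further.

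No respiratory chain probe set passed the adjusted threshold in any of the 7 comparisons run. Over complexes I to V, the median log2 difference between LXRα and GFP vehicle livers was 0.07, against 0.05 for all probe sets tested. It was 0.03 for those within the members' interquartile range of brightness. The T0901317 medians were 0.07 in GFP livers and 0.10 in LXRα livers, against -0.05 in both for all probe sets. Probe sets within the members' interquartile range of brightness had medians of 0.13 and 0.11 in those comparisons, close to the members' values. LXRα and GFP livers under T0901317 differed by a median of 0.07, against 0.03 for all probe sets and 0.008 for those of like brightness. Counted with 1 probe set per gene, 46 of 75 member genes (61.3%) were higher with LXRα than with GFP in vehicle livers. That held for 59.9% of all genes and 55.2% of 774 genes as bright as the middle of the members. Between LXRα and GFP livers under T0901317 it was 51 of 75 (68%), against 55.8% and 49.0%. With T0901317, 49 of 75 (65.3%) were higher in GFP livers, against 48.2% of all genes and 60.5% of 774 genes as bright as the middle of the members. In LXRα livers it was 53 of 75 (70.7%), against 47.1% and 57.4%. Averaged over transgenes it was 49 of 75, against 49.0% and 59.0%, made up of 24 of 33 in complex I, 2 of 4 in complex II, 5 of 8 in complex III, 5 of 13 in complex IV and 13 of 17 in complex V. Of those 13 complex IV genes, Cox6a2, Cox7a1, Cox7c and Cox8b lay near the floor. Genes are not independent replicates, so these counts carry no test. The plot of differences by complex shows all genes, with 1 probe set each.

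**Figure D1:**
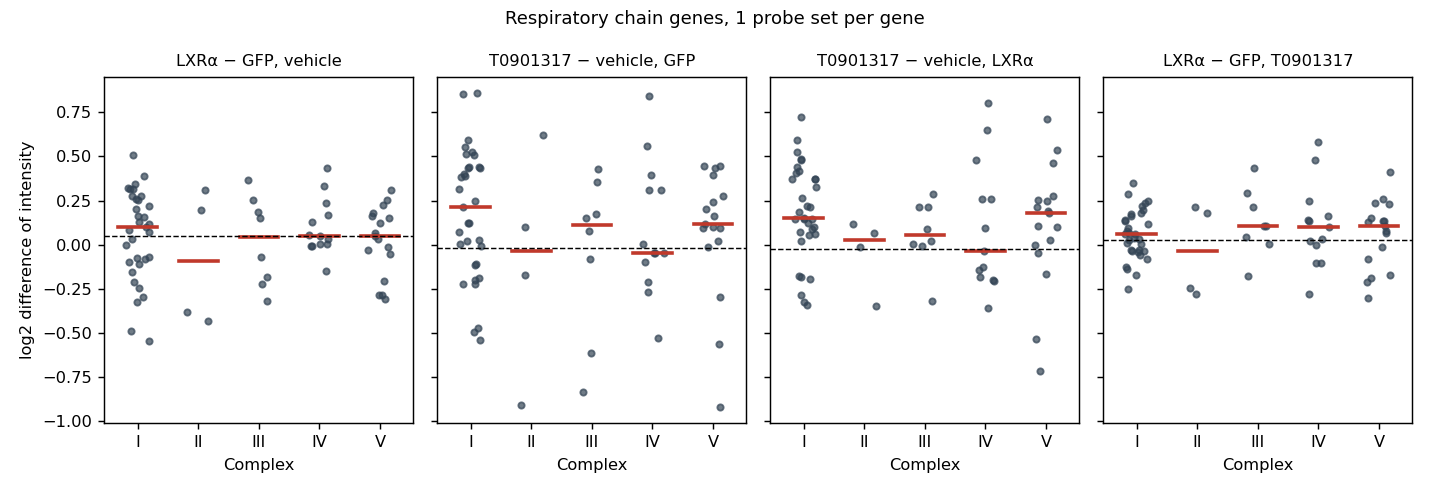
Log2 difference of each respiratory chain gene (1 point per gene, its brightest tested probe set) by complex in the 4 simple comparisons, with the median of each complex in red and the median of all 9359 genes tested as a dashed line. Complex I with T0901317 in GFP livers has a median of 0.21 against -0.02 for all genes, and complex V in LXRα livers 0.18 against -0.03. The 774 genes of like brightness (not drawn) have medians of 0.13 and 0.086 in these comparisons, and complex IV has -0.045 and -0.034. Single genes spread to both sides of the line.

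Vehicle livers were compared to see what receptor delivery alone altered. By limma, 0 of 146 members were called at an adjusted p under 0.05, where 0.00631% of all probe sets were. At an unadjusted p under 0.05 there was 1 member, against 5.15% of all probe sets. That was a dimmer probe set of Ndufab1, the mitochondrial acyl carrier protein that is also a complex I subunit, with 106 and 79.8 in GFP vehicle and 147 and 157 in LXRα vehicle livers. The groups did not overlap (higher and apart on 30.9% of all probe sets), and the difference was 0.72 (SE 0.24, limma adjusted p = 0.872). Its brightest probe set gave -0.21, so the probe sets of Ndufab1 differed in sign. By complex, the medians were 0.08 for complex I, 0.12 for complex II, -0.01 for complex III, 0.06 for complex IV and 0.07 for complex V.

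Among complex I genes the ends of this comparison were Ndufb11, an accessory subunit of the membrane arm, at 0.51 (SE 0.32), and Ndufs8, an iron-sulfur subunit, at -0.54 (SE 0.32). In complex II they were Sdha, the flavoprotein that oxidises succinate, at 0.31 (SE 0.28) and Sdhc, a membrane anchor, at -0.43 (SE 0.22). In complex III they were Uqcrb, at 0.37 (SE 0.26), and Uqcrc2, a core subunit, at -0.32 (SE 0.33). Every one of these had a limma adjusted p of 0.963. Complex IV ran from Cox5b at -0.15 to Cox6a2 at 0.43, a value with little weight because Cox6a2 lay near the floor (12.6 to 22.3 against 7.50), and complex V from Atp5g1 at -0.31 to Atp5k at 0.31. For 51 of 75 genes of complexes I to V the 95% interval lay within 2-fold either way. The share was 68.3% of all genes and 45.7% of the 774 genes of like brightness. With T0901317 in both arms, 0 of 146 members were called and 0 had an unadjusted p under 0.05, against 0 and 2.24% of all probe sets. The interval lay within 2-fold for 55 of 75 genes, against 72.4% of all genes and 56.7% of those of like brightness. Averaged over both treatments, 0 members were called, where 0.00631% of all were, and 1, again Ndufab1, had an unadjusted p under 0.05, against 2.66%.

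The complexes also differed between the arrays of one group. Complex I had a median deviation from its own 8-array mean of -0.30 on GFP vehicle replicate 1 and 0.09 on replicate 2. It was 0.12 and -0.04 in GFP T0901317, 0.12 and -0.17 in LXRα vehicle, and -0.05 and 0.18 in LXRα T0901317 livers. Replicate 1 of GFP vehicle was thus the lowest array, and its partner lay with the others. Complex V repeated this order at the low end, with -0.30 and 0.18 in GFP vehicle livers, and complex III gave -0.23 and 0.16. Complex IV lay between -0.03 and 0.11 on every array, dim isoforms included, and between -0.082 and 0.23 over its 20 probe sets past the 50th percentile of brightness, a check added after the data were seen. It was not low on GFP vehicle replicate 1 either way (0.01 and -0.019), and complex II, with 7 probe sets, did not share the low value (0.16 and 0.06). Across all 15838 probe sets the same medians ran only from -0.05 to 0.04.

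Single probe sets also differed between the arrays of one group. Of 137 probe sets of complexes I to V, 54 had their lowest value on GFP vehicle replicate 1 and 58 their highest on LXRα T0901317 replicate 2. Such counts were not made over all tested probe sets, so whether they are particular to the chain was not tested. LXRα T0901317 replicate 2 was the array of highest β-actin ratio. There 100 of these 137 lay above their own mean over the arrays, against 9291 of all 15838 tested. On GFP vehicle replicate 1 it was 43 of 137, against 8479 of 15838. Ndufa9, a complex I subunit of the matrix arm, gave 266 and 714 in GFP vehicle, 534 and 254 in LXRα vehicle, 394 and 371 in GFP T0901317 and 375 and 391 in LXRα T0901317 livers. Uqcr11, a small complex III subunit, gave 444 and 1107, 1215 and 521, 881 and 1014, and 860 and 1101 in the same order. For both genes the vehicle groups overlapped, with a wide gap between the arrays of each, and the agonist arrays lay within the vehicle range. Ndufa9 was lowest on LXRα vehicle replicate 2, and Uqcr11 on GFP vehicle replicate 1. The cause of the low values on GFP vehicle replicate 1 was not tested. Without that array the median for LXRα against GFP in vehicle livers was -0.093 in complex I and -0.13 in complex V, and that for T0901317 in GFP livers was -0.079 and -0.029, so these 4 medians had the opposite sign.

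**Figure D2:**
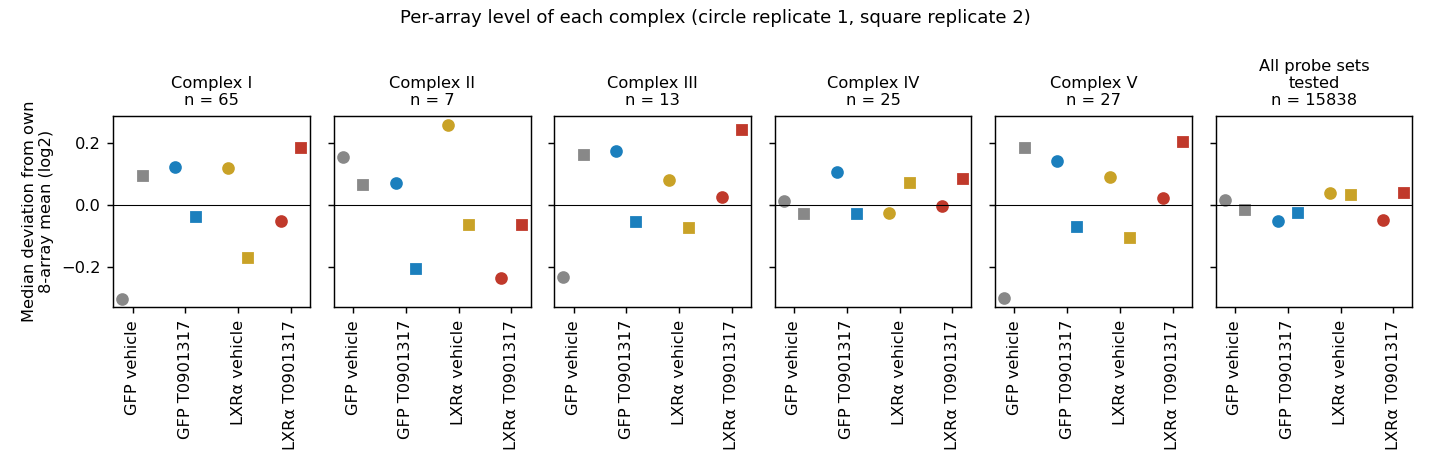
Median over tested probe sets of the deviation from each probe set's own 8-array mean (log2), for complexes I to V and for all probe sets tested, with circles for replicate 1 and squares for replicate 2. GFP vehicle replicate 1 is low in complexes I, III and V (-0.30, -0.23 and -0.30), and the 2 arrays of a group lie apart.

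The T0901317 comparisons asked what the agonist changed with and without the transgene. In GFP livers 0 of 146 members were called by limma (0 of all 15838 were), and 9 had an unadjusted p under 0.05, 7 of them in complexes I to V, against 13.2% of all probe sets. The 95% interval lay within 2-fold for 36 of 75 genes, against 60.0% of all genes and 36.3% of those of like brightness. In LXRα livers 0 members were called, where 0.0253% of all were. There 10 had an unadjusted p under 0.05, 8 of them in complexes I to V, again against 13.2%. The 2-fold interval held 42 of 75 genes, against 60.9% of all genes and 39.5% of those of like brightness. Both comparisons have their own vehicle arrays. Averaged over both transgenes, 0 members were called, where 0.568% of all probe sets were, and 2 passed an adjusted p under 0.10, where 4.66% did. At an unadjusted p under 0.05 there were 12 in complexes I to V, 8 higher and 4 lower, and 3 assembly factor probe sets, all higher, against 23.2% of all (12.7% higher and 10.5% lower). The 95% interval lay within 2-fold either way for 62 of 75 genes, against 77.1% of all genes and 65.6% of those of like brightness.

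In complex I, 6 of 65 probe sets had an unadjusted p under 0.05 in the averaged comparison. Ndufa5, an accessory subunit of the matrix arm, gave 808 and 1123 in GFP vehicle, 1144 and 1046 in LXRα vehicle, 1785 and 1674 in GFP T0901317 and 1208 and 1946 in LXRα T0901317 livers. All 4 agonist arrays lay above the 4 vehicle arrays, as on 8.20% of all probe sets. The difference was 0.67 (SE 0.21, limma adjusted p = 0.147), and its second probe set gave 0.37. Ndufc2, a membrane arm subunit, gave 1365 and 1203, 1346 and 1343, 2132 and 1755, and 1931 and 2544 in the same order. These groups did not overlap either, with a difference of 0.66 (SE 0.17, limma adjusted p = 0.105), against 0.10 for its dimmer probe set. With the ratio as a covariate Ndufa5 gave 0.34 and Ndufc2 0.47. Ndufa6, another accessory subunit, differed by 0.46 (SE 0.15) and an x_at probe set of Ndufa12 by 0.50 (SE 0.17), each with agonist arrays above vehicle arrays, or by 0.38 and 0.33 with the covariate.

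Ndufv3, a small subunit of the NADH-oxidising module, gave 1303 and 1692 in GFP vehicle, 1751 and 1848 in LXRα vehicle, 2495 and 2876 in GFP T0901317 and 1693 and 3505 in LXRα T0901317 livers. LXRα T0901317 replicate 1, the agonist array with the low β-actin ratio, lay among the vehicle arrays, and the other 3 agonist arrays lay above them. The averaged difference of 0.64 (SE 0.25) became 0.09 with the ratio as a covariate. Ndufv1, which binds NADH in the same module, had 3 tested probe sets. One of the dimmer ones gave 751 and 700, 848 and 760, 551 and 467, and 678 and 333 in that order, all agonist arrays below all vehicle arrays (8.44% of all probe sets), a difference of -0.64 (SE 0.25, limma adjusted p = 0.197). With the ratio as a covariate that difference shrank to -0.088 (SE 0.18). The other Ndufv1 probe sets gave -0.09 and 0.01 without the covariate.

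Complex II feeds electrons from succinate into the chain through 4 subunits. Sdha was at 1584 and 1070 in GFP vehicle, 2329 and 1727 in GFP T0901317, 1634 and 1596 in LXRα vehicle and 1511 and 1890 in LXRα T0901317 livers on its brighter probe set. The GFP groups were apart, as on 23.2% of all probe sets in this direction, and the LXRα groups overlapped, with an averaged difference of 0.34 (SE 0.20), while its second probe set gave -0.34. Sdhb, the iron-sulfur subunit, differed by 0.11 with a 95% interval of -0.34 to 0.56. Sdhc, an anchor in the membrane, gave 973 and 868 in GFP vehicle, 749 and 668 in LXRα vehicle, 488 and 468 in GFP T0901317 and 510 and 347 in LXRα T0901317 livers on its x_at probe set. No agonist array reached a vehicle array there, and the difference was -0.85 (SE 0.18, limma adjusted p = 0.0817), or -0.55 with the ratio as a covariate. The other Sdhc probe set, which represents the gene, gave 862 and 860, 709 and 573, 730 and 802, and 595 and 668, overlapping groups and a difference of -0.09 (SE 0.16). Sdhd, the other anchor, had 690 and 1024 in GFP vehicle and 439 and 457 in GFP T0901317 livers, apart as on 35.2% of all probe sets, a difference of -0.91 (SE 0.40). In LXRα livers it had 946 and 441 with vehicle against 454 and 566, a difference of -0.35 (SE 0.40). Averaged, Sdhd gave -0.63 (SE 0.28), or -0.75 with the ratio as a covariate, while its x_at probe set gave 0.03 in GFP livers, in LXRα livers and averaged.

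In complex III, which passes electrons from ubiquinol to cytochrome c, 0 of 13 probe sets had an unadjusted p under 0.05 in the averaged comparison. Uqcrc1, a core subunit, gave 997 and 823 in GFP vehicle, 664 and 388 in GFP T0901317, 877 and 689 in LXRα vehicle and 823 and 470 in LXRα T0901317 livers. The difference of -0.58 (SE 0.27, limma adjusted p = 0.235) became -0.10 with the ratio as a covariate. Uqcrq, a small accessory subunit, differed by -0.61 (SE 0.21) in GFP and by 0.01 (SE 0.21) in LXRα livers. The difference between these, the interaction, was 0.62 (SE 0.30, limma adjusted p = 1.00), so it did not pass. The other tested probe set of Uqcrq had an interaction of 0.054 (SE 0.20). Uqcrfs1, the Rieske iron-sulfur protein, lay between 1269 and 1695 on the 8 arrays and differed by -0.05.

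Complex IV, cytochrome c oxidase, had 3 of 25 probe sets at an unadjusted p under 0.05. Cox6b1, the widely expressed form of a subunit that faces the intermembrane space, gave 3546 and 4756 in GFP vehicle, 5560 and 4811 in LXRα vehicle, 6792 and 8006 in GFP T0901317 and 6192 and 10622 in LXRα T0901317 livers. All agonist arrays lay above all vehicle arrays, with a difference of 0.75 (SE 0.21, limma adjusted p = 0.129), or 0.34 with the ratio as a covariate. The second probe set gave 0.39. Cox7a2, the widely expressed form of another small subunit, gave 0.68 (SE 0.23) and 0.54 (SE 0.17) on its 2 probe sets, both with groups that did not overlap. With the ratio as a covariate these were 0.42 and 0.51. Cox4i1, which regulates the enzyme, lay between 2162 and 3853, and its difference of -0.04 had a 95% interval of -0.56 to 0.48.

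Several complex IV subunits have isoforms of other tissues on the array. Each is read against the floor of 7.50 and not against another probe set. Muscle forms lay near the floor: Cox6a2 gave 12.6 to 22.3, Cox7a1 10.2 to 13.8 and Cox8b 8.04 to 11.9 over the 8 arrays. Cox8c, a testis form, lay higher, at 34.6 to 45.8. Cox4i2, a form of lung, and Cox6b2, a form of testis, were not tested, with 6.78 to 9.78 and 5.93 to 6.64. The widely expressed partners Cox6a1 (6867 to 13442), Cox7a2 (1894 to 5315) and Cox8a (310 to 948) lay far above it. Both probe sets of Cox7c, a widely expressed subunit, were dim, at 8.78 to 12.0 and 5.47 to 6.87, so these probe sets do not show its level.

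**Figure D3:**
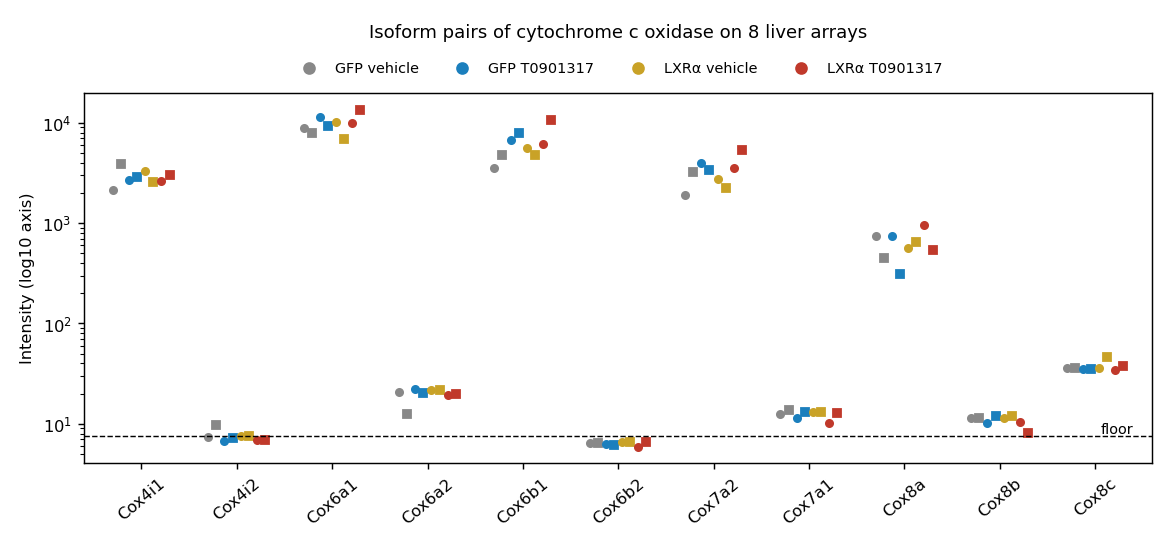
Intensity (log10 axis) of isoforms of complex IV subunits on the 8 arrays, by group, with the floor of 7.50 dashed. Probe sets are to be read against the floor, not against each other: Cox6a2, Cox7a1 and Cox8b stay between 8.04 and 22.3, while Cox6a1, Cox6b1 and Cox7a2 stay at 1894 or above.

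In complex V, 2 of 27 probe sets had an unadjusted p under 0.05, both lower. They stand for Atp5c1, the γ subunit of the central stalk, at -0.55 (SE 0.22), and Atp5a1, the α subunit, one probe set of which gave 2831 and 2614 in GFP vehicle, 3207 and 3804 in LXRα vehicle, 2320 and 1633 in GFP T0901317 and 2666 and 1366 in LXRα T0901317 livers. LXRα T0901317 replicate 1 lay among the vehicle values, and the difference was -0.68 (SE 0.25, limma adjusted p = 0.183). The other Atp5a1 probe sets gave 0.36 and 0.37. Atp5b, the catalytic β subunit, gave 5564 and 4337, 3687 and 4396, 3373 and 2000, and 4213 and 1433 in the same order, again with LXRα T0901317 replicate 1 among the vehicle arrays, and a difference of -0.82 (SE 0.36, limma adjusted p = 0.226). With the ratio as a covariate Atp5b gave 0.02, Atp5a1 -0.16 and Atp5c1 -0.21. Atp5g3, a c subunit of the rotor ring, lay between 5574 and 7569 and differed by 0.14 with a 95% interval of -0.19 to 0.46.

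Atp5d, the δ subunit, showed how probe sets of 1 gene can part. In GFP livers its dimmer probe set gave 946 and 1061 with vehicle and 743 and 310 with T0901317, a difference of -1.06 (SE 0.41), and in LXRα livers 566 and 596 against 815 and 636, a difference of 0.31 (SE 0.41). Its interaction of 1.37 (SE 0.58, unadjusted p = 0.0488, limma adjusted p = 1.00) had the smallest p of all members, and no member was called for the interaction, where 0.00631% of all probe sets were and 4.77% had an unadjusted p under 0.05. The brighter probe set gave 0.44 and 0.53 in the GFP and LXRα livers. Of 41 genes of complexes I to V with several tested probe sets, 20 had both signs in the averaged comparison.

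**Figure D4:**
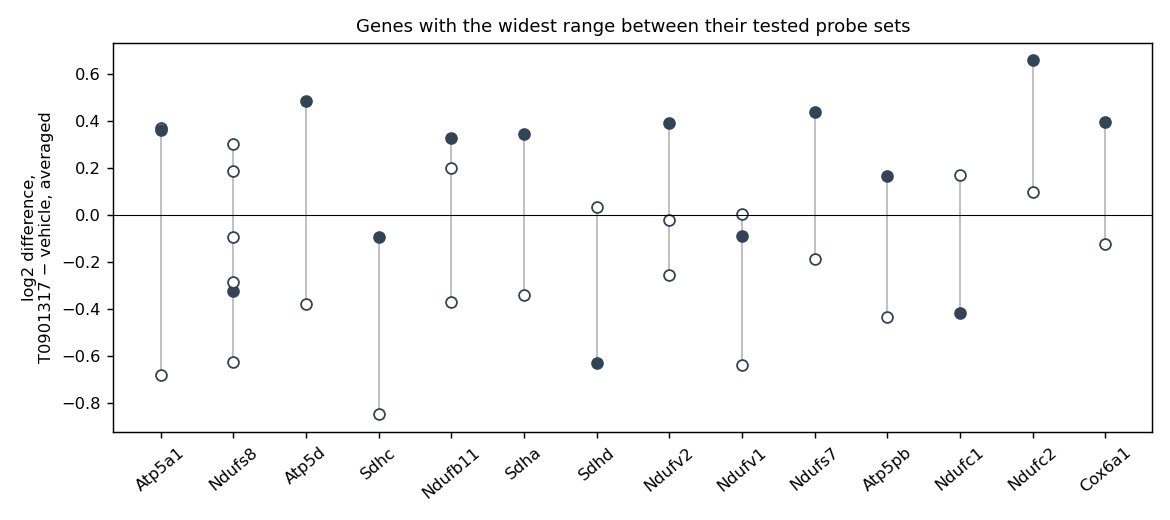
Averaged T0901317 difference (log2) of every tested probe set of the 14 genes of complexes I to V with the widest range between probe sets, with the one that represents the gene filled. Atp5a1 runs from -0.68 to 0.37 and Ndufs8 from -0.62 to 0.30.

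Among the assembly factors, Ndufaf4, which helps to build complex I, had the smallest adjusted p of all members in the averaged comparison. Its dimmer probe set gave 32.9 and 28.6 in GFP vehicle, 47.0 and 43.1 in LXRα vehicle, 94.9 and 63.2 in GFP T0901317 and 76.5 and 84.8 in LXRα T0901317 livers. Every agonist array exceeded every vehicle array, including LXRα T0901317 replicate 1. The difference was 1.09 (SE 0.17), or 2.13-fold, with a limma adjusted p of 0.0565, and 1.06 with the ratio as a covariate. It was 1.34 in GFP and 0.84 in LXRα livers. The brighter Ndufaf4 probe set gave 0.67 (SE 0.22, limma adjusted p = 0.153), or 0.35 with the covariate. Cox7a2l, a factor that joins complexes III and IV into supercomplexes, gave 0.59, 0.41 and 0.24 on its 3 probe sets, the first of them 0.47 with the covariate.

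**Figure D5:**
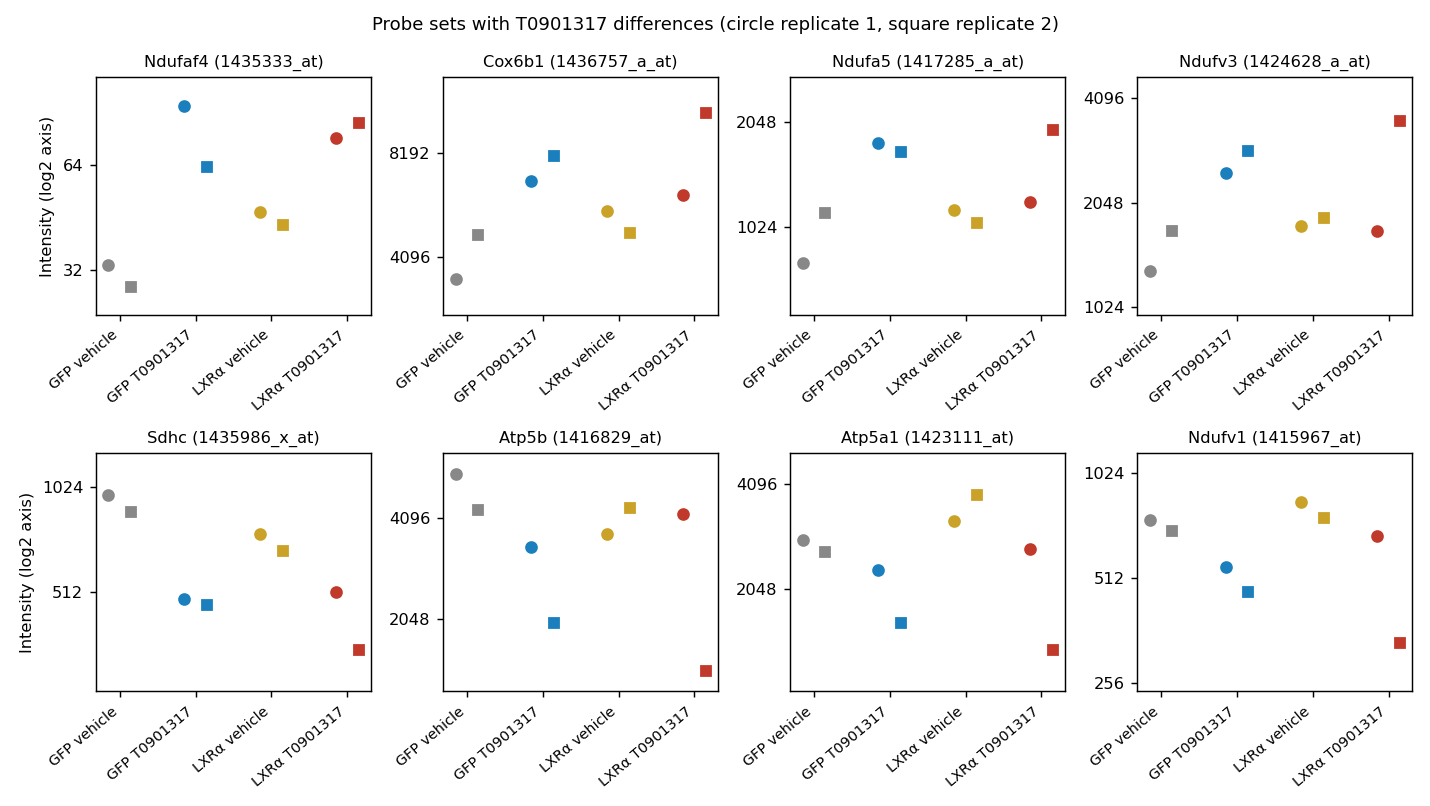
Intensity (log2 axis) of 8 member probe sets by group, with circles for replicate 1 and squares for replicate 2. For Ndufaf4, Cox6b1, Ndufa5 and the Sdhc probe set the agonist and vehicle arrays do not overlap, while for Ndufv3, Atp5b and Atp5a1 the circle of LXRα T0901317 lies among the vehicle arrays.

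Calls of members appeared when a single array was left out. Without LXRα T0901317 replicate 1, the agonist array of lowest β-actin ratio, 11 of 146 members were called in the averaged comparison (7.53%), against 9.51% of all probe sets (4.78% higher and 4.73% lower), and without replicate 2 there were 0. The 7 called higher were Ndufa5, Ndufv3, Ndufc2, Cox6b1, Atp5d and both probe sets of Ndufaf4. The 4 called lower were probe sets of Ndufv1, Sdhc, Atp5a1 and Atp5b. In that fit the dimmer Ndufaf4 probe set gave 1.13, Sdhc -0.99, Atp5b -1.20 and Atp5d 0.70. With all arrays and the ratio as a covariate they gave 1.06, -0.55, 0.02 and 0.04. The agonist arrays left in that fit were those of high β-actin ratio, so agonist and ratio cannot be told apart in these calls.

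Genes around the chain were read from lists, with the brightest tested probe set of each gene. The shares beside them are over all tested probe sets, so the units differ. No share at these thresholds was computed over genes of like brightness. Of the 13 subunits encoded in mitochondrial DNA, 0 had a tested probe set. No gene of the 5 other mitochondrial lists was called in the averaged T0901317 comparison by limma, against 0.568% of all probe sets. Of 34 tested assembly factors, 3 were higher and 3 lower at an unadjusted p under 0.05, where 12.7% of all probe sets were higher and 10.5% lower, with a median of 0.06. Uqcc1, needed to build complex III, gave 117 and 102 in GFP vehicle, 124 and 101 in LXRα vehicle, 61.0 and 50.9 in GFP T0901317 and 62.2 and 50.6 in LXRα T0901317 livers. No array of one treatment reached the other, and the difference was -0.98 (SE 0.16, limma adjusted p = 0.0622).

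Of 17 biogenesis regulators, 6 were higher and 1 lower at an unadjusted p under 0.05, with a median of 0.16, beside the same shares of all probe sets. Polrmt, the mitochondrial RNA polymerase, gave 61.8 and 40.1, 66.8 and 88.4, 145 and 144, and 107 and 151 in the same order, a difference of 1.13 (SE 0.21, limma adjusted p = 0.0706). Ppargc1b, a coactivator of mitochondrial genes, differed by 1.07 (SE 0.33), and Nrf1, nuclear respiratory factor 1, by -0.42 (SE 0.12). Of 21 electron carriers and entry points, 5 were higher and 1 lower at that threshold, against the same shares. The higher ones were Vdac1, a pore of the outer membrane, at 0.57 (SE 0.20), Gpd2 at 0.56 (SE 0.23), Slc25a4, an ADP and ATP carrier, at 0.45 (SE 0.17), Sqor at 0.44 (SE 0.18) and Coq5 at 0.43 (SE 0.16), and the lower one was Dhodh, which passes electrons to ubiquinone, at -0.40 (SE 0.13). Of 17 tricarboxylic acid cycle genes none had an unadjusted p under 0.05, with a median of -0.04. Of 5 uncoupling and antioxidant genes there was likewise none, with a median of -0.12. In the transgene comparison in vehicle livers these lists held no called gene, where 0.00631% of all probe sets were called. All 14 tested markers of macrophages, Kupffer cells included, lay lower there. Of them, 7 had an unadjusted p under 0.05, against 5.15% of all probe sets in either direction. Their summed intensity reached 14324 and 15619 on the GFP vehicle arrays but 10343 and 4078 on those of LXRα vehicle. Stellate cell and matrix markers lay lower there too, 11 of 12 with a median of -0.81 and 5 at an unadjusted p under 0.05, against the same 5.15%. In the averaged T0901317 comparison 11 of 12 stellate markers lay higher, with a median of 0.82 and 6 at that threshold, against 12.7% of all probe sets. So did 9 of 11 endothelial markers, with a median of 0.40, 5 at that threshold, against the same 12.7%, and 1 called, where 0.568% of all probe sets were. By transgene, the stellate median was 0.09 in GFP livers (6 of 12 higher) and 1.39 in LXRα livers (11 of 12 higher). The endothelial median was 0.28 in GFP livers and 0.34 in LXRα livers. For macrophage markers the T0901317 median was 0.17 averaged (10 of 14 higher). It was -0.51 in GFP livers (10 of 14 lower) and 0.83 in LXRα livers (12 of 14 higher). The part of these cell types in the member values was not tested. Of 10 tested of 12 hepatocyte markers, the sum lay between 115839 and 151572 on the 8 arrays.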

How the data were processed

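Liver RNA of 8 mice was measured on Affymetrix arrays, 1 array per mouse, in 4 groups taken from the sample titles. The deposited table gives 1 intensity per probe set and array on a linear scale; how the authors summarised and scaled the arrays is not given in the sources used here. No column of per-sample values was left unused.

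Of 22690 probe sets, 64 controls were left out. Symbols came from the platform's annotation table. The deposited intensities below 7.50 (their 20th percentile) were set to that floor before taking log2. A probe set was tested when its average log2 intensity exceeded the 30th percentile, which 15838 did. Deposited scaling was kept; precision is limited by the few arrays. The 4 group means were fitted together over 8 arrays in limma 3.58.1 in R 4.3.3 (eBayes with an intensity trend, 4 residual and 2.93 prior degrees of freedom). Benjamini-Hochberg adjustment ran over every tested probe set of a comparison, with calls under 0.05. Standard errors are limma's. The steps were tested on simulated data.

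Each gene's brightest tested probe set stands for it (an x_at one only for want of another). Named genes are those at either end of each complex in each comparison, those of highest intensity, complex IV isoforms, the 4 Sdh genes, genes with probe sets of both signs and at least 1 unadjusted p under 0.05, and, from each list, up to 4 genes of smallest p. The members and lists were chosen with earlier results of these data known. Ndufa9, Uqcrfs1 and members named only for an unadjusted p under 0.05 were picked after their values were seen. Alternatives covered scaling, floor, offset, filter, variance model, replicate block, samples in the fit, single arrays left out, the β-actin ratio as a covariate or without its 3 highest arrays, and the threshold. Shares over genes of like brightness were added after the data were seen. Figures were drawn with matplotlib 3.10.9.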

Additional observations from a re-analysis of the deposited data

How the results depend on the processing

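The count of members called stayed at 0 in all 7 comparisons under every alternative run, with these exceptions in the averaged T0901317 comparison: 1 member was called with each array centred on its median and 1 with a filter at the 50th percentile, 2 at an adjusted p under 0.10, and 0 to 11 with single arrays left out. With the replicate number as a block (replicate block) 0 members were called. Nothing in the labels pairs same-numbered mice. Deviations of same-numbered arrays correlated between -0.14 and 0.25 over all tested probe sets. Over those of complexes I to V they correlated between -0.57 and 0.41, with both signs in each set. What same-numbered arrays share beyond the number was not tested.

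Of the medians per complex, the complex II median in LXRα versus GFP vehicle livers was -0.091 with the brightest probe set of each gene. The complex IV median of T0901317 in GFP livers was 0.083 with the actin ratio as covariate. In LXRα livers it was 0.16 with median centring, 0 with no filter, 0.16 with the 50th percentile filter, -0.00430 with the ratio as a covariate, -0.022 without the 3 arrays of highest ratio and -0.034 with the brightest probe sets. Averaged, it was 0.090 with median centring.

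With single arrays left out, the complex medians that at least 1 such fit moved by more than their spread between arrays ranged as follows. For LXRα versus GFP with vehicle they ran from -0.093 to 0.30 for complex I, -0.048 to 0.17 for complex II, 0.055 to 0.13 for complex IV and -0.13 to 0.31 for complex V. For T0901317 in GFP livers they ran from -0.079 to 0.35 for complex I, -0.17 to 0.10 for complex II, -0.12 to 0.33 for complex III, -0.028 to 0.19 for complex IV and -0.029 to 0.35 for complex V. For the interaction they ran from -0.23 to 0.26 for complex I, -0.12 to 0.26 for complex II, -0.071 to 0.38 for complex III, -0.13 to 0.079 for complex IV and -0.21 to 0.20 for complex V. For LXRα versus GFP with T0901317 they ran from -0.21 to 0.048 for complex II and -0.055 to 0.15 for complex IV. For T0901317 in LXRα livers they ran from 0.041 to 0.34 for complex III and -0.022 to 0.071 for complex IV. For the averaged transgene comparison it ran from 0.033 to 0.13 for complex IV. For T0901317 averaged it ran from -0.060 to 0.081 for complex IV.

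Signs of single probe sets turned as follows. In LXRα livers under T0901317, Sdhb was -0.032 without the 3 arrays, Uqcrc1 was 0.12 with the ratio as a covariate and 0.082 without the 3 arrays, and Atp5b was 0.069 and 0.065 under these. Averaged over transgenes, Cox5b was 0.15 and Atp5b 0.025 with the covariate. With single arrays left out, signs turned within these ranges. For T0901317 in LXRα livers these were Atp5b from -1.49 to 0.065, Sdhb from -0.13 to 0.36, Sdhd from -0.90 to 0.20, Uqcr11 from -0.32 to 0.90 and Uqcrc1 from -0.72 to 0.082. For LXRα versus GFP with vehicle it was Atp5g1 from -0.69 to 0.078. For LXRα versus GFP with T0901317 they were Atp5l from -0.071 to 0.89, Cox8a from -0.046 to 1.21, Ndufb3 from -0.051 to 0.75 and Uqcrc2 from -0.58 to 0.22. For T0901317 averaged it was Cox5b from -0.44 to 0.0083. For T0901317 in GFP livers it was Uqcr11 from -0.23 to 1.09. The causes were not tested. Probe sets below or near the floor, among them Cox7c and the muscle isoforms, give no usable difference.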
